A study of Ovis aries with 2 samples.

Results

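The heat shock and DNAJ chaperone genes of sheep testis were described across germ stages, somatic cell types and 2 single-cell libraries. Members were all symbols of the deposited gene list that begin with HSPA, HSPB, HSPD, HSPE, HSPH, HSP90, DNAJA, DNAJB or DNAJC, without HSPA2, HSPA5, HSP90B1, DNAJC13 and symbols beginning with HSPBAP or HSPG. This gave 52 of 27054 genes, and no symbol began with HSPD or HSPE. The set is not purely cytosolic: HSPA9, DNAJA3 and DNAJC15 encode mitochondrial proteins, HSPA13, DNAJB9, DNAJC1, DNAJC3 and DNAJC10 encode proteins of the endoplasmic reticulum, and HSPBP1 is a nucleotide exchange factor caught by its first letters. Of 64 protein-coding genes that the same rule finds in the RefSeq annotation of sheep (assembly ARS-UI_Ramb_v3.0, used for names only), 14 matched no symbol here and were not analysed, among them HSPA1A, HSPA4, HSPD1, DNAJA1 and DNAJB1.

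The ZEA library, labelled ZEA0.75, and the Control library were both made from sheep testis at 8 months with a droplet kit that tags RNA molecules at their 3' end. ZEA is the usual abbreviation of zearalenone, an oestrogenic mould toxin, but the labels neither spell it out nor give a unit for 0.75 or a route of exposure. Neither strain nor the number of animals per library is stated in the labels. Each group has 1 library, so no difference below has a replicate check. An effect of the treatment and a difference between the animals or preparations sampled cannot be told apart.

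Heat shock proteins of the HSP70 and HSP90 classes bind unfolded proteins and release them in cycles driven by ATP. J-domain proteins (the DNAJ genes) bring clients to HSP70 and start its ATP hydrolysis, while HSP110 proteins, HSPBP1 and BAG proteins exchange its nucleotide. Small heat shock proteins hold unfolded proteins without ATP. In mammalian testis several of these families have members made mainly in meiotic or haploid germ cells beside the forms used by other cells, and somatic cells induce part of the set through heat shock factors when proteins are damaged.

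The ZEA library held 8809 barcodes with 22148456 unique molecular identifiers (UMIs, 1 per counted RNA molecule), against 7030 barcodes with 53044981 in the Control library. Median depth of the kept cells was 1405.5 UMIs in ZEA and 4121 in Control, and 15 barcode sequences occurred in both libraries. The Cell Ranger version in the file header also differed between the libraries. Clusters were made from genes other than the members and named from fixed marker lists, so each name is an inference ("-like"). The ZEA library held 1426 round spermatid-like, 1022 elongating spermatid-like and 4593 somatic cells of named types but only 6 late spermatocyte-like cells. The Control library held 1121 late spermatocyte-like, 659 round spermatid-like, 2509 elongating spermatid-like, 112 Sertoli-like and 45 leukocyte-like cells, with at most 20 cells in any other somatic class.

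Levels are UMIs per 1000000 UMIs (CPM) of the summed cells of a class, and values in parentheses after a level are its exact Poisson 95% interval. Ratios are given as log2, each with a 95% interval from the exact conditional binomial. Both kinds of interval hold counting error alone. A member was counted as higher or lower when it was at least 2-fold apart, with no test behind it, and the same share over all genes is printed beside the count. UMIs are counted at the 3' end, so levels of different genes count molecules and were not divided by length. No source used here says how reads were split among near-identical HSP70 or HSP90 copies, so HSPA1L, HSPA6, HSPA8, HSP90AA1 and HSP90AB1 are uncertain to that degree.

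Together the members gave 1.30% of all UMIs in ZEA cells and 1.31% in Control cells. Every member except HSPB3 was detected in both libraries, and HSPB3 had 0 UMIs in each. The share varied more between cell types than between libraries. Within ZEA it was 1.16% in round spermatid-like, 1.07% in elongating spermatid-like, 1.58% in endothelial-like and 1.65% in leukocyte-like cells. Within Control it was 1.76% in late spermatocyte-like, 1.03% in round spermatid-like, 1.21% in elongating spermatid-like, 1.00% in Sertoli-like and 1.23% in leukocyte-like cells.

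**Figure D1:**
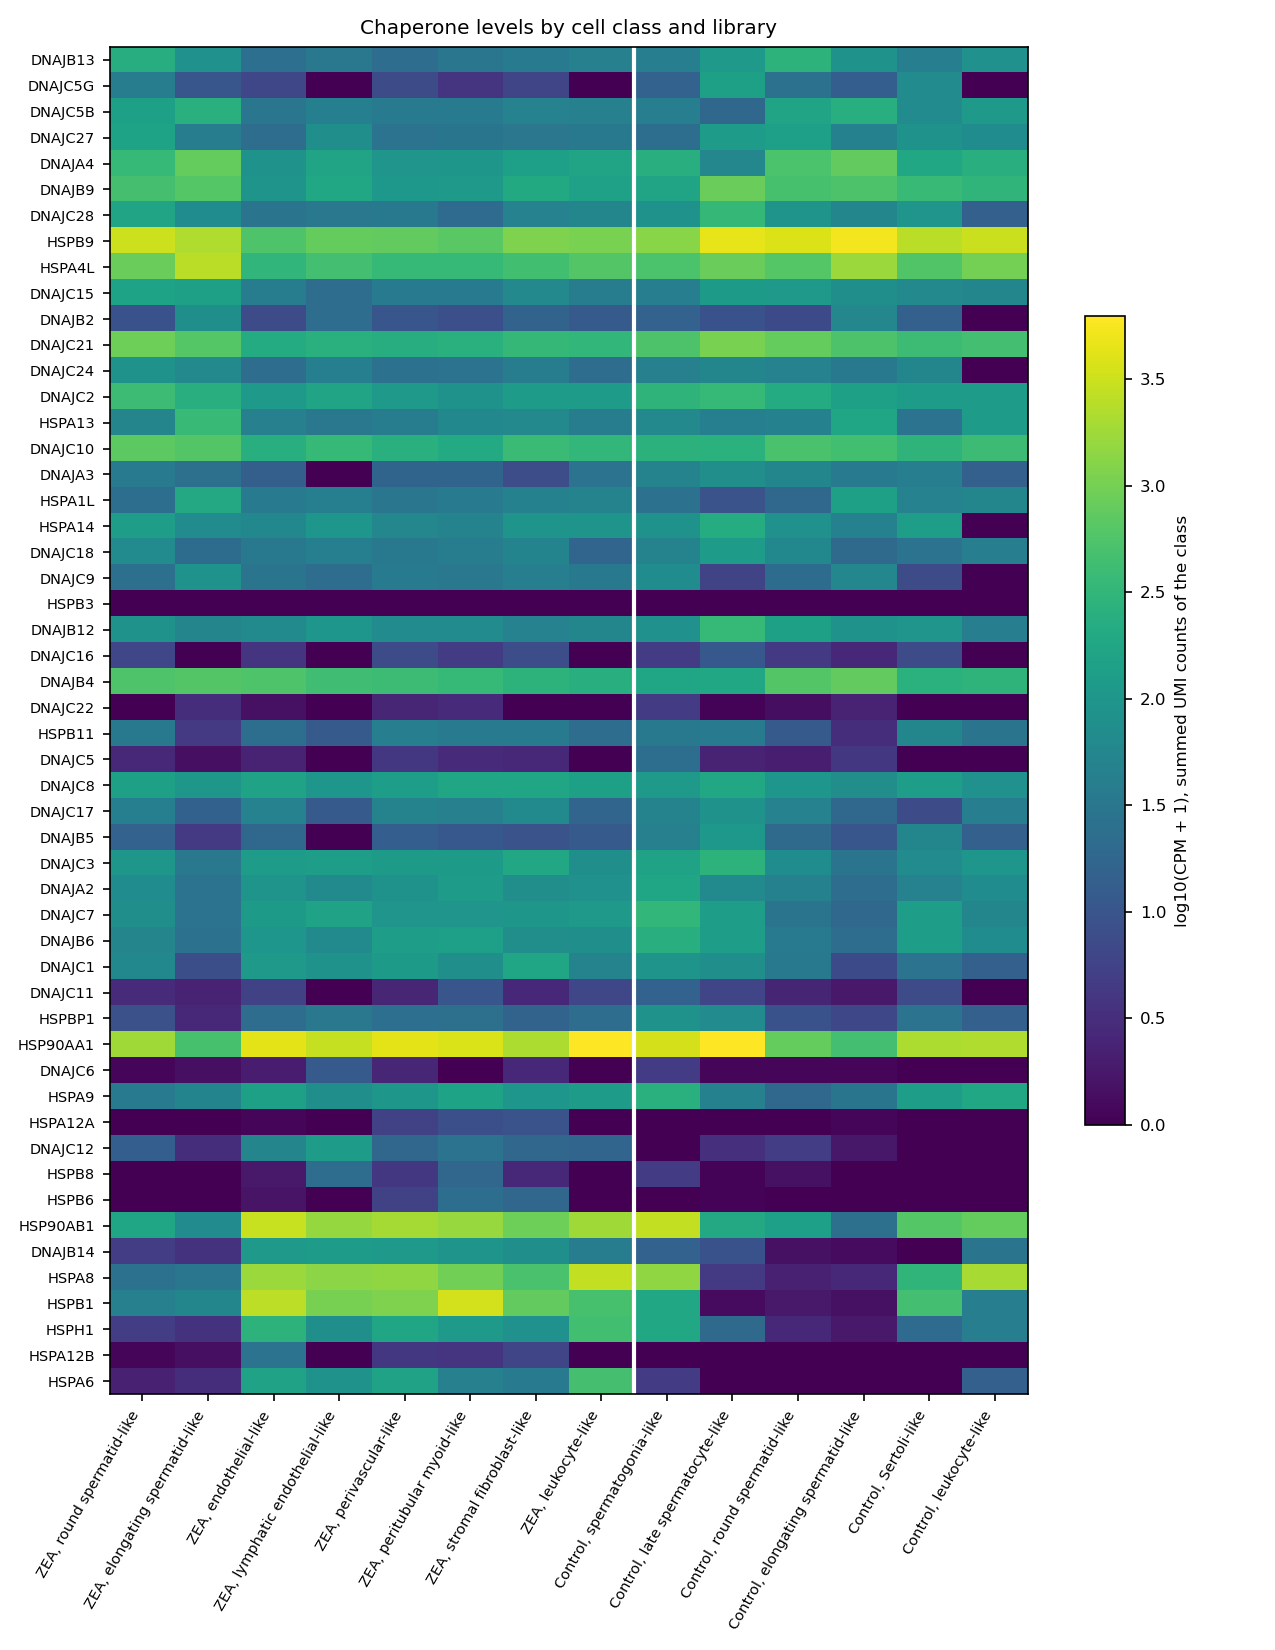
Level of each of the 52 members (rows, ordered by the ratio of germ to somatic level in ZEA) in the cell classes of ZEA (left of the white line) and Control (right), as log10(CPM + 1) of the summed UMI counts. HSPB9 and HSPA4L are bright in germ classes of both libraries, HSPB1, HSPA8, HSPH1 and HSPA6 in the somatic classes of ZEA, and HSP90AA1 in Control late spermatocyte-like as well as in ZEA somatic cells.

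Germ development was followed over 8 germ clusters of the Control library, set in order by the marker genes fixed for each stage. Cluster 13 (35 cells, fewer than the 50 asked of a class) is spermatogonia-like. Clusters 12 and 7 (149 and 972 cells) are late spermatocyte-like, with PIWIL1 among the leading genes of cluster 12 and AURKA of cluster 7. The name of cluster 12 is narrow: it scored 1.67 on the late and 1.44 on the early spermatocyte list. TEX101, an early spermatocyte marker, is also among its leading genes. At resolution 2, with members among the variable genes and with doublets kept, the cluster with TEX101 among its leading genes had no name. Cluster 9 (601 cells) is round spermatid-like, cluster 5 (556 cells) lies between round and elongating and has no name, and clusters 6, 4 and 8 (807, 654 and 817 cells) are elongating spermatid-like. HMGB4, a late haploid gene, had 5635 CPM in cluster 9, 8130 in cluster 5, 11374 in cluster 6 and 17061 in cluster 4, while cluster 8 had 2940 CPM of HMGB4 and 9607 CPM of SPEM1, a late spermatid gene. Cells of cluster 8 are shallow, with a median of 1453.5 UMIs over both libraries, and the place of this cluster after cluster 4 rests on its markers alone. Median depth in Control was 13464 UMIs in cluster 6, 4707.5 in cluster 4 and 1471 in cluster 8. A CPM that rises over these clusters can therefore go with fewer UMIs per cell.

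Each member was assigned the germ cluster of its highest level, as every gene was. Of 45 members with at least 20 UMIs in Control, 12 were highest in cluster 13 (35.2% of all genes were), 8 in cluster 12 (13.1%), 11 in cluster 7 (14.8%), 4 in cluster 9 (11.4%), 0 in cluster 5 (5.70%), 2 in cluster 6 (7.32%), 5 in cluster 4 (4.97%) and 3 in cluster 8 (7.53%). The share highest in cluster 7 was thus 24.4% of members, above the 14.8% of all genes. That in cluster 13 was 26.7%, below the 35.2% of all genes, and that in cluster 8 was 6.67%, near the 7.53%. DNAJB2 and DNAJC9 were the members highest in cluster 6.

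The 2 cytosolic HSP90 genes parted at meiosis. HSP90AA1, the stress-inducible form that is also abundant in spermatocytes of mice, had 3619 CPM in cluster 13, 7441 in cluster 12, 5986 in cluster 7, 802 in cluster 9, 542 in cluster 5, 413 in cluster 6, 393 in cluster 4 and 797 in cluster 8. It was thus highest in spermatocytes and lower in every haploid cluster. Round cluster 9 over spermatocyte cluster 7 gave a log2 ratio of -2.90 (-2.94 to -2.86) for HSP90AA1. HSP90AB1, the constitutive form, had 2779 CPM in cluster 13, 449 in cluster 12, 140 in cluster 7, 138 in cluster 9, 54.1 in cluster 5 and 22.3 to 28.4 in clusters 6, 4 and 8. HSP90AB1 made up 5.69% of the UMIs of both genes in cluster 12, against 43.4% in cluster 13.

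Among the HSPA genes, HSPA8 and HSPA4L changed places. HSPA8, the constitutive cytosolic HSP70, had 1487 CPM (1346 to 1640) in cluster 13, 9.62 in cluster 12, 2.04 in cluster 7 and between 1.10 and 2.64 in the 5 haploid clusters. Cluster 12 over cluster 13 gave a log2 ratio of -7.27 (-7.93 to -6.68) for HSPA8, from 24 and 402 UMIs. HSPA4L, an HSP110-like exchange factor that is enriched in the testis of mice, had 533 CPM in cluster 13, 1089 in cluster 12, 806 in cluster 7, 612 in cluster 9, 951 in cluster 5, 1437 in cluster 6, 1826 in cluster 4 and 2901 in cluster 8. Its UMIs were 16727 in the 807 cells of cluster 6, 6712 in the 654 of cluster 4 and 4392 in the 817 of cluster 8. Over these clusters its UMIs per cell thus fell while its CPM rose. HSPA4L gave between 72.1% and 90.5% of the HSPA UMIs in the 7 later clusters, and HSPA8 gave 60.6% in cluster 13. Those shares leave out HSPA2 and HSPA5, which are not members, and HSPA1A and HSPA4, which had no symbol here.

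Other HSPA genes had late, meiotic or early maxima. HSPA1L, an HSP70 made in spermatids of mice and humans, had 7.89 CPM in cluster 7, 17.2 in cluster 9, 63.9 in cluster 5, 121 in cluster 6, 220 in cluster 4 and 102 in cluster 8. HSPA13, an HSP70-like ATPase of microsomes, followed a similar course with 45.5 CPM in cluster 7, 44.1 in cluster 9, 77.3 in cluster 5, 163 in cluster 6, 180 in cluster 4 and 153 in cluster 8. HSPA1L had 1407 UMIs in the 807 cells of cluster 6 and 807 UMIs in the 654 cells of cluster 4. HSPA13 had 1899 and 663 UMIs there, so both had fewer UMIs per cell in cluster 4. HSPA14, which binds ribosomes, was instead meiotic, with 249 CPM in cluster 12, 221 in cluster 7 and 17.7 in cluster 4. HSPA9, the mitochondrial HSP70, had 15.9 to 89.4 CPM in the 7 later clusters, against 255 CPM in cluster 13.

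HSPH1, the HSP110 exchange factor of HSP70, was early. Its level was 181 CPM in cluster 13, 40.1 in cluster 12, 14.8 in cluster 7 and at most 1.98 in the haploid clusters. In cluster 4 HSPH1 had 0 UMIs, which allows up to 0.816 CPM.

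Among the HSPB genes measured, germ clusters 12 to 8 held almost wholly HSPB9, which is known as a testis form in mice and humans. HSPB2 and HSPB7 had no symbol here, and small heat shock genes under other names are not members. HSPB9 had 1332 CPM in cluster 13, 4199 in cluster 12, 4588 in cluster 7, 3958 in cluster 9, 3455 in cluster 5, 3529 in cluster 6, 5722 in cluster 4 and 18718 in cluster 8. Its level lay between 3455 and 4588 CPM from cluster 12 to cluster 6, and the shallow late cluster stood apart. Cluster 8 over cluster 4 gave a log2 ratio of 1.71 (1.68 to 1.74) for HSPB9, beside 0.67 (0.61 to 0.72) for HSPA4L and 1.02 (0.91 to 1.13) for HSP90AA1. Those are ratios of CPM, not of UMIs per cell. HSPB9 had 28339 UMIs in the 817 cells of cluster 8 and 21036 in the 654 cells of cluster 4. HSPA4L had 4392 UMIs in cluster 8 and 6712 in cluster 4, and HSP90AA1 had 1206 and 1443. HSPA4L and HSP90AA1 thus had fewer UMIs per cell in cluster 8. The whole member set took 2.52% of UMIs in cluster 8 and 1.26% in cluster 4. HSPB9 was at least 98.4% of all HSPB UMIs in clusters 12 to 8.

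HSPB1, the widespread small heat shock protein, had at most 1.32 CPM in the 7 later clusters, against 181 CPM in cluster 13. HSPB11, also known as the intraflagellar transport protein IFT25, was meiotic, with 33.3 CPM in cluster 13, 68.2 in cluster 12, 26.6 in cluster 7 and 10.8 in cluster 9. The spermatogonia-like cluster 13 also held 1639 CPM of HMGB4, a haploid gene, beside its 1332 CPM of HSPB9. The part of released RNA in the levels of cluster 13 was not tested.

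**Figure D2:**
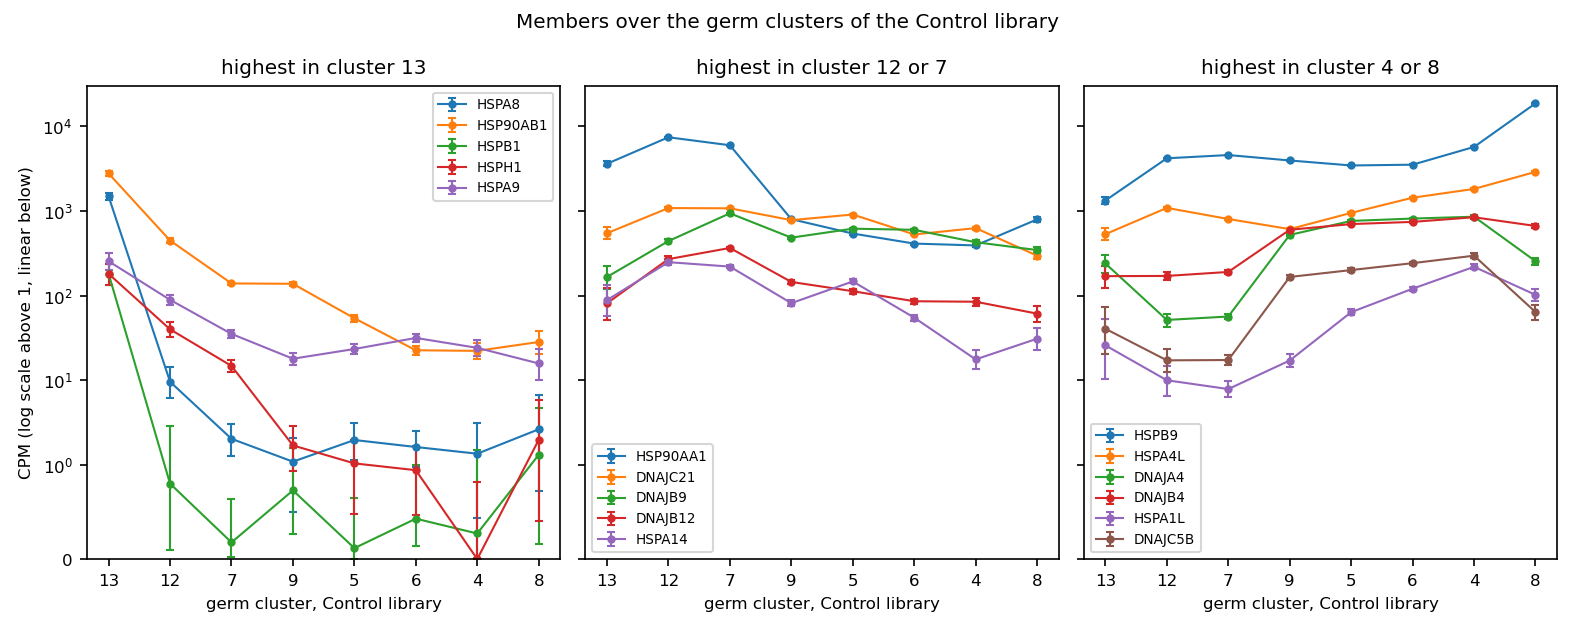
CPM of 16 members over the 8 germ clusters of Control, from spermatogonia-like (13) over late spermatocyte-like (12, 7) and round (9) to elongating spermatid-like (6, 4, 8), grouped by the cluster of the highest level. Bars are exact Poisson 95% intervals, and the axis is logarithmic above 1 CPM and linear below. HSPA8 has 9.62 CPM in cluster 12 against 1487 in cluster 13, HSP90AA1 has 802 in cluster 9 against 5986 in cluster 7, and HSPB9 reaches 18718 in cluster 8.

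J-domain genes of the DNAJA and DNAJB classes took different places along the order. DNAJA4, a cochaperone of HSP70, had 240 CPM in cluster 13, 51.7 in cluster 12, 56.8 in cluster 7, 522 in cluster 9, 765 in cluster 5, 815 in cluster 6, 857 in cluster 4 and 256 in cluster 8. DNAJB4 had 170 to 191 CPM in clusters 13, 12 and 7 and 601 to 845 CPM in the 5 haploid clusters. Both were thus higher in round cluster 9 than in spermatocyte cluster 7. The log2 ratios were 3.20 (3.08 to 3.32) for DNAJA4 and 1.65 (1.58 to 1.73) for DNAJB4. In ZEA, DNAJB4 was not among the members at least 2-fold higher in germ than in somatic cells, while DNAJA4 was.

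DNAJB13, a part of the radial spokes of the sperm flagellum, had 53.6 CPM in cluster 4, against its highest level of 286 CPM in round cluster 9. DNAJB9, a J protein of the endoplasmic reticulum, had 166 CPM in cluster 13, 442 in cluster 12, 940 in cluster 7 and 346 to 619 CPM afterwards. DNAJB12, anchored in the same membrane, had 145 CPM in cluster 9, against 366 in cluster 7. DNAJB6, which holds back protein aggregation, had 240 CPM in cluster 13, 234 in cluster 12, 105 in cluster 7 and 19.9 to 36.5 afterwards.

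Of the DNAJC genes, the 3 cysteine-string protein genes separated by stage. DNAJC5G had 25.1 CPM in cluster 9, against 155 in cluster 7. DNAJC5B had 17.4 CPM in cluster 7, 166 in cluster 9, 201 in cluster 5, 242 in cluster 6, 297 in cluster 4 and 64.1 in cluster 8. DNAJC5, the form of nerve terminals, had at most 3.26 CPM in the later clusters, against 22.2 CPM in cluster 13. Cluster 9 over cluster 7 gave log2 ratios of -2.62 (-2.84 to -2.42) for DNAJC5G and 3.26 (3.04 to 3.48) for DNAJC5B.

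DNAJC21, a factor of ribosome assembly, was the DNAJC gene with the most UMIs in every Control germ cluster, with 548 CPM in cluster 13, 1085 in cluster 12, 1077 in cluster 7, 781 in cluster 9 and 297 in cluster 8. DNAJC2, which binds ribosomes with HSPA14, had 292, 467 and 317 CPM in clusters 13, 12 and 7 and 76.0 in cluster 8. DNAJC3, an inhibitor of eIF2 kinases in the endoplasmic reticulum, had 24.8 CPM in cluster 4, against 407 in cluster 12. DNAJC28, a mitochondrial member, had 90.4 CPM in cluster 9, against 352 in cluster 7. DNAJC10, a disulfide reductase of the endoplasmic reticulum, was highest in cluster 9 at 505 CPM. DNAJC7, a cochaperone of HSP70 and HSP90, was early, with 329 CPM in cluster 13, 94.6 in cluster 12, 140 in cluster 7 and 27.7 in cluster 9.

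Each step between neighbouring clusters was counted over members whose UMIs in the 2 sums came to at least 50. Cluster 12 over cluster 13 had 14 of 37 members higher (25.6% of all genes) and 9 lower (25.9%). At the next step, cluster 7 over cluster 12, 2 of 40 were higher (9.41%) and 7 lower (12.2%). The entry into haploid stages, cluster 9 over cluster 7, held 6 of 41 higher (27.2%) and 17 lower (33.1%), with a member median of -0.91 on the log2 scale beside -0.43 over all genes. DNAJA4, DNAJB13, DNAJB4, DNAJC5B, DNAJC9 and HSPA1L were the 6 higher. DNAJB14, at -3.45 from 4 and 60 UMIs, was lowest of the 17, followed by HSPH1 at -3.12, HSPBP1 at -2.99, HSP90AA1 at -2.90 and DNAJC5G at -2.62.

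The steps among spermatid clusters were counted in the same way. Cluster 5 over cluster 9 had 3 of 36 members higher (11.3%) and 4 lower (12.1%), and cluster 6 over cluster 5 had 2 of 37 higher (7.66%) and 3 lower (16.5%). From cluster 4 over cluster 6, 0 of 35 were higher (0.961%) and 5 lower (20.6%). Cluster 8 over cluster 4 had 2 of 32 higher (14.4%), namely HSPB9 and HSP90AA1, and 7 lower (19.0%), namely DNAJA4, DNAJB2, DNAJC10, DNAJC21, DNAJC5B, DNAJC9 and HSPA1L. All of these steps lie within 1 library, so no library difference enters them.

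Germ and somatic cells were set side by side within ZEA, where both are plentiful (2471 and 4593 cells). The germ cells were 1426 round and 1022 elongating spermatid-like cells, with 17 spermatogonia-like and 6 late spermatocyte-like cells. Germ levels here are thus almost wholly those of spermatid-like cells and not of earlier stages. Of 45 members that reached 50 UMIs over both sums, 18 were at least 2-fold higher in germ cells (40% of those members, against 36.0% of all 11080 genes) and 14 were lower (31.1%, against 39.4%). The other 13 lay between, and 7 members had too few UMIs. The member median was 0.24 on the log2 scale, beside -0.08 over all genes. As shares these counts are near those of all genes, while single members were far apart.

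On the germ side, DNAJB13 had 183 CPM in germ and 25.1 in somatic cells (log2 ratio 2.86, 2.68 to 3.05). DNAJC5G followed with 30.3 CPM in germ and 5.02 in somatic cells (2.59, 2.17 to 3.04), then DNAJC5B with 174 and 32.2 (2.43, 2.27 to 2.61). Next came DNAJC27, a Rab-like GTPase with a J domain, at 2.38, and DNAJA4 at 2.37. HSPB9 had 2864 CPM in germ and 627 in somatic cells (2.19, 2.15 to 2.23), and HSPA4L had 1329 in germ and 333 in somatic cells (2.00, 1.94 to 2.05). Within ZEA, round spermatid-like cells held the highest HSPB9 (3182 CPM), and elongating spermatid-like cells the highest HSPA4L (2547 CPM) and DNAJA4 (784 CPM).

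On the somatic side stood HSPA6, a strictly stress-induced HSP70 of humans, with 1.48 CPM in germ and 139 in somatic cells (-6.56, -7.52 to -5.75). HSPH1 had 4.80 CPM in germ and 254 in somatic cells (-5.72, -6.22 to -5.27). HSPB1 had 50.1 CPM in germ and 2463 in somatic cells (-5.62, -5.76 to -5.48), and HSPA8 had 38.7 in germ and 1536 in somatic cells (-5.31, -5.48 to -5.15). HSPA12B, an HSP70 relative of endothelium, had 3 UMIs in germ cells and 238 in somatic cells (-5.85, -8.14 to -4.29). HSP90AB1 had 172 CPM in germ and 2624 in somatic cells (-3.93, -4.01 to -3.85), and HSP90AA1 had 1467 in germ and 4199 in somatic cells (-1.52, -1.55 to -1.49). DNAJB14, with 3.82 CPM in germ and 105 in somatic cells, lay between HSPA8 and HSP90AB1 at -4.78 (-5.35 to -4.27). These ratios do not cover earlier germ stages. In Control, HSP90AA1 reached 7441 CPM in cluster 12, and HSP90AB1 and HSPA8 reached 2779 and 1487 in cluster 13. The highest levels over the Control germ clusters were 181 CPM each for HSPB1 and HSPH1, 20.9 for DNAJB14, 3.70 for HSPA6 and 0 for HSPA12B.

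**Figure D3:**
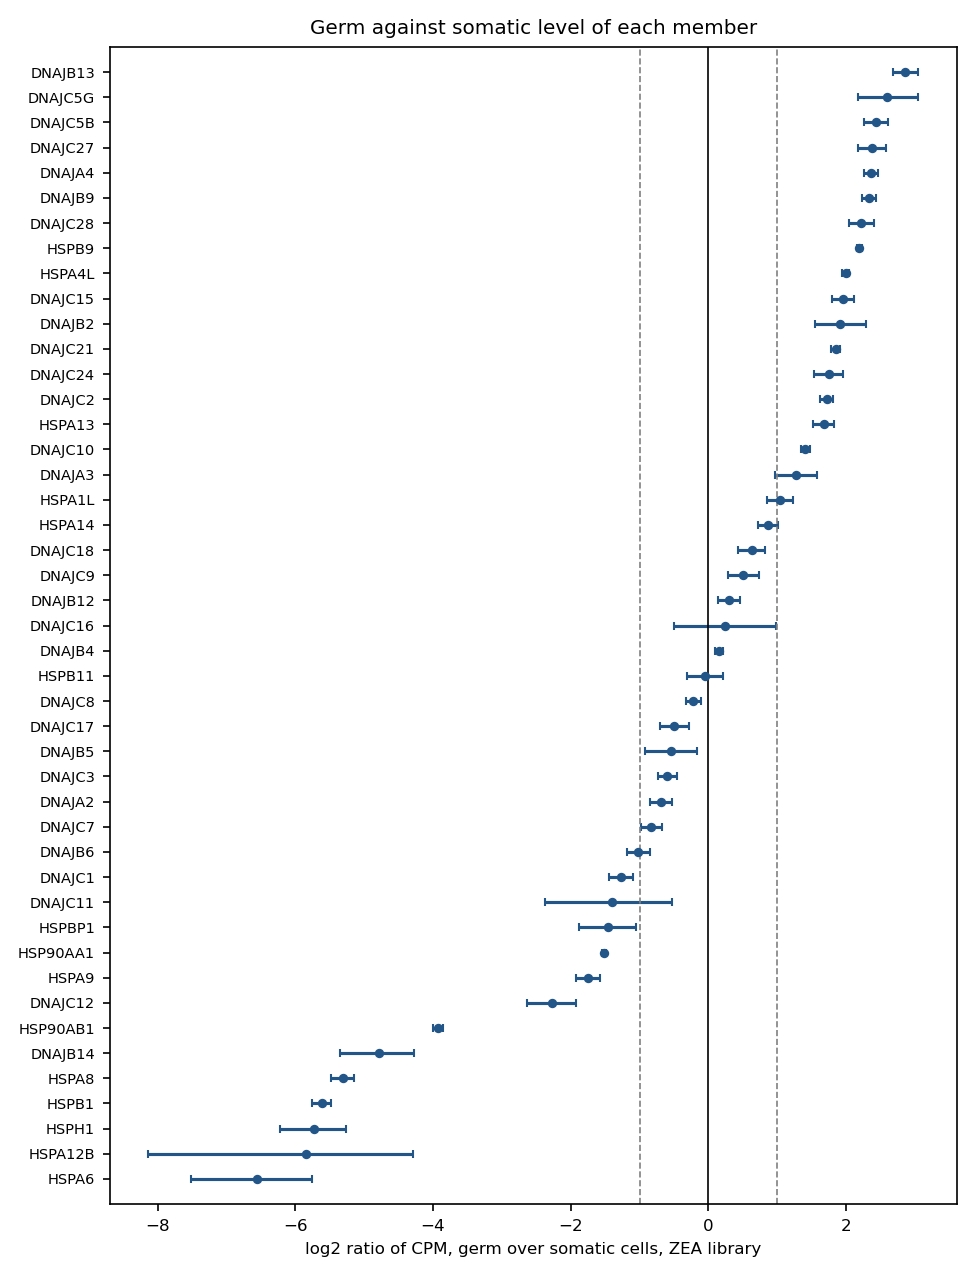
Log2 ratio of germ over somatic CPM in ZEA for the 45 members with at least 50 UMIs, each with its exact conditional binomial 95% interval, and dashed lines at 2-fold either way. 18 members lie right of the upper line, up to DNAJB13 at 2.86, and 14 left of the lower line, down to HSPA6 at -6.56. Nearly all of the germ cells are spermatid-like.

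RNA released into the droplets can be counted in cells that do not make it. HMGB4, which somatic cells should lack, stood in the ZEA somatic classes at 12.1% (endothelial-like) to 24.3% (leukocyte-like) of its highest germ level. HSPA4L at 12.4% to 23.3%, DNAJA4 at 10.7% to 20.9%, DNAJC5B at 11.8% to 18.7% and DNAJB13 at 9.58% to 19.1% lay close to that range. HSPB9 at 17.8% to 36.0%, DNAJC21 at 23.5% to 36.4% and DNAJB4 at 39.5% to 93.5% reached higher shares. In the other direction, FOS stood at 1.16% and 1.26% of its highest somatic level in ZEA round and elongating spermatid-like cells, beside 1.27% and 1.56% for HSPB1 and 0.890% and 1.07% for HSPA8. The part of released RNA in the HSPB1 and HSPA8 levels of ZEA spermatids was not tested.

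Each member with at least 20 UMIs in a library was assigned the class, among those of at least 50 cells, where it was highest. In ZEA, 13 of 49 members were highest in round spermatid-like cells (23.6% of all genes) and 9 in elongating spermatid-like cells (14.4%). Somatic classes took 3 members in endothelial-like (9.52%), 6 in lymphatic endothelial-like (16.6%), 2 in perivascular-like (6.13%), 7 in peritubular myoid-like (8.49%), 5 in stromal fibroblast-like (9.62%) and 4 in leukocyte-like cells (11.7%). The 4 of the leukocyte-like class were HSP90AA1, HSPA6, HSPA8 and HSPH1. In Control, 23 of 45 members were highest in late spermatocyte-like cells (36.7%), 4 in round spermatid-like (20%), 11 in elongating spermatid-like (20.3%) and 7 in Sertoli-like cells (23.1%). The last 7 were DNAJC11, HSP90AB1, HSPA8, HSPA9, HSPB1, HSPB11 and HSPH1. Control spermatogonia-like (35) and leukocyte-like cells (45) were too few to be among these classes. HSPA8, HSP90AB1 and HSPH1 had 1487, 2779 and 181 CPM in spermatogonia-like cluster 13, above their Sertoli-like levels. Of the 23 members, DNAJA2, DNAJB6, DNAJC1, DNAJC7 and HSPBP1 were also higher in cluster 13 than in the late spermatocyte-like clusters.

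Within the somatic cells of ZEA, HSP90AA1, HSPA8, HSPA6 and HSPB1 had different levels by cell type. HSP90AA1 had 6162 CPM in leukocyte-like, 4348 in endothelial-like, 4327 in perivascular-like, 3852 in peritubular myoid-like, 2939 in lymphatic endothelial-like and 2127 in stromal fibroblast-like cells. HSPA8 was also led by leukocyte-like cells at 2819 CPM (2581 to 3073), with 1657 in endothelial-like and 516 in stromal fibroblast-like cells. HSPA6 had 474 CPM (380 to 585) in leukocyte-like, 153 in perivascular-like, 151 in endothelial-like and 37.5 to 86.4 in the other 3 classes. HSPB1 followed another order, with 3482 CPM in peritubular myoid-like, 2608 in endothelial-like, 1160 in perivascular-like and 496 in leukocyte-like cells. Intervals of the perivascular-like and endothelial-like classes overlapped for HSP90AA1 and HSPA6, so their order there is not resolved by counting.

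The muscle-type small heat shock genes HSPB6 and HSPB8 were sparse. HSPB6 had 22.4 CPM (24 UMIs) in peritubular myoid-like and 10 UMIs in stromal fibroblast-like cells, and 0 UMIs in ZEA round and elongating spermatid-like cells. HSPB8 had 16.8 CPM in peritubular myoid-like cells and 21.6 in lymphatic endothelial-like cells (67 cells), where the level is under the 32.4 CPM that 3 UMIs give. HSPA12B had 26.8 CPM in endothelial-like cells and at most 5.11 CPM in every other ZEA class of at least 50 cells; 0 UMIs in the lymphatic endothelial-like class allow up to 32.4 CPM. DNAJB14, a J protein of the endoplasmic reticulum membrane, had 110 CPM in endothelial-like and 108 in perivascular-like cells, beside 3.91 and 2.54 in round and elongating spermatid-like cells.

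Endothelial-like cells of ZEA fell into clusters 23, 17 and 10 (365, 1801 and 986 cells) with unequal chaperone levels. HSP90AA1 had 7891 CPM in cluster 23, 4016 in cluster 17 and 2718 in cluster 10. HSPH1 had 592, 252 and 192 CPM there, and HSPA6 had 335, 137 and 44.1 CPM. Cluster 23 over cluster 17 had 3 of 41 members higher (5.72% of all genes), HSPA6 at 1.29 (1.11 to 1.47), HSPH1 at 1.23 (1.10 to 1.37) and DNAJC12 at 1.57 (1.26 to 1.87), and 0 lower (3.15%). HSP90AB1 hardly differed, at 3310 and 3138 CPM. Among the leading genes were the arterial genes HEY1 and EFNB2 in cluster 23 and the capillary gene CA4 in cluster 17, while cluster 10 is shallow, with a median of 681 UMIs over both libraries. The 14 measured immediate early genes, which tissue dissociation is known to induce, summed to 15253 CPM in cluster 23, 9731 in cluster 17 and 4129 in cluster 10, and their part in the result was not tested.

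Of the somatic classes, leukocyte-like cells alone had more than 20 cells in each library, with 152 in ZEA and 45 in Control. The 45 are under the 50 asked for a comparison, so values are given side by side. HSP90AA1 had 6162 CPM (5808 to 6532) in ZEA and 2232 (1901 to 2603) in Control. HSPA6 had 87 UMIs (474 CPM) in ZEA and 1 UMI (13.8 CPM) in Control. HSPH1 had 442 CPM in ZEA and 41.3 (3 UMIs) in Control, and HSPB1 had 496 CPM in ZEA and 41.3 (3 UMIs) in Control. HSPA8 lay closer, at 2819 CPM (2581 to 3073) in ZEA and 1970 (1660 to 2321) in Control. The immediate early genes summed to 8103 CPM in ZEA leukocyte-like cells, with 0 of 14 at 0 UMIs, and to 5827 CPM in Control ones, with 1 of 14 at 0. Their part was not tested, nor that of the makeup of macrophages and lymphocytes in each library.

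Over whole libraries, HSPA6 had 1716 UMIs in 861 ZEA cells (9.78%, 9.17 to 10.4) and 2 UMIs in 2 Control cells (0.0294%, 0.00356 to 0.106). Thinned to 500 UMIs per cell, the shares were 2.68% in ZEA and 0% in Control, whose 0 cells allow up to 0.0440%. The libraries hold unlike shares of somatic cells, so these totals carry the cell makeup with them. Control Sertoli-like cells, the largest somatic class of that library, had 0 UMIs of HSPA6 (up to 20.2 CPM), 3 UMIs of HSPH1 (20.2 CPM), 458 CPM of HSPB1 (355 to 580), 303 CPM of HSPA8 and 633 CPM of HSP90AB1. HSPB9 had 2564 CPM in these cells, 48.0% of its highest germ class in Control, beside 2773 CPM or 23.5% for HMGB4. The part of released RNA in the HSPB9 level was not tested.

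**Figure D4:**
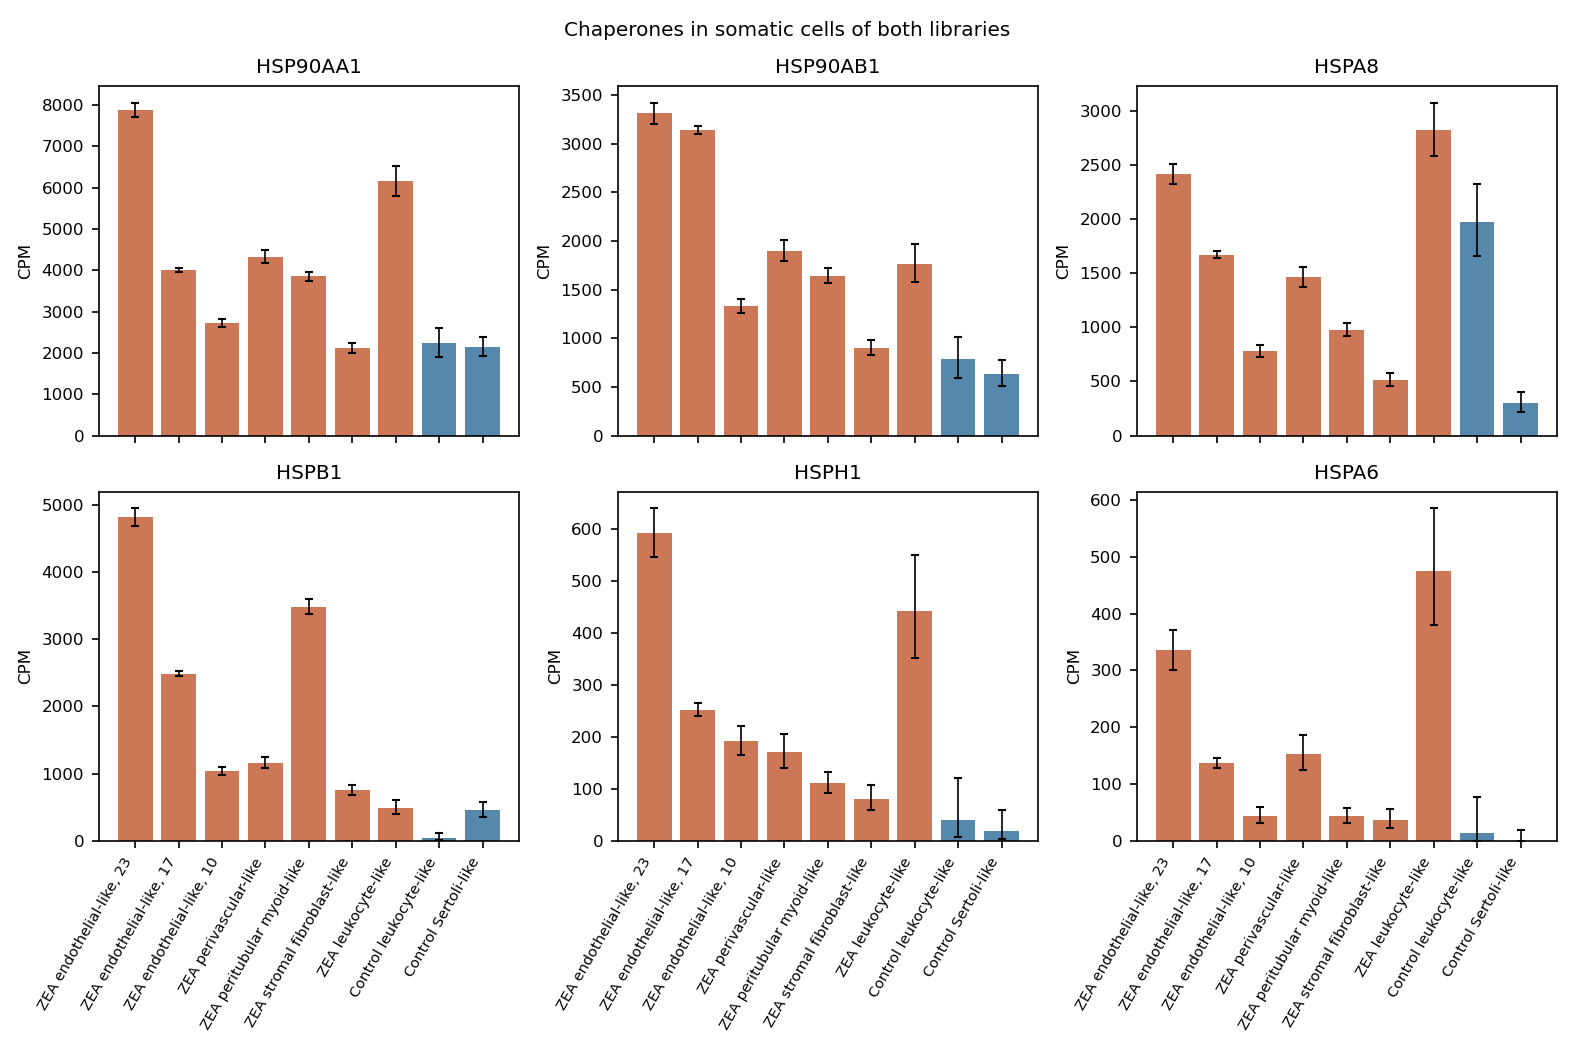
CPM of 6 members in somatic cells of ZEA (orange) and Control (blue), with exact Poisson 95% intervals; the 3 endothelial-like columns are clusters 23, 17 and 10. HSPA6 reaches 474 CPM in ZEA leukocyte-like and 335 in ZEA cluster 23, against 1 UMI in Control leukocyte-like and 0 in Control Sertoli-like cells.

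Between libraries, round spermatid-like cells differed in few members. A member entered with at least 50 UMIs, detection in 5% of cells of either library, and a level of at least 25% of its highest class against released RNA. Of 29 that entered, 3 were at least 2-fold higher in ZEA (10.3%, against 9.33% of all 5951 genes) and 0 were lower (3.19% of all genes). HSPB11 had 33.1 CPM in ZEA and 10.8 in Control (log2 ratio 1.61, 1.24 to 1.99), DNAJC7 had 76.9 in ZEA and 27.8 in Control (1.47, 1.23 to 1.70), and HSP90AA1 had 1819 in ZEA and 803 in Control (1.18, 1.13 to 1.22). The share of members higher is near that of all genes. The 25% was judged in the library with the higher level, and all 3 passed through ZEA alone: in Control they stood at 20.1% (HSPB11), 8.45% (DNAJC7) and 12.9% (HSP90AA1) of their highest class. Where the 25% had to be met in both libraries, 23 members entered and 0 were higher or lower. The HSP90AA1 ratio was under 2-fold after thinning (0.94), with equal weight per cell (0.87) and with unnamed clusters in their best-scoring class (0.89). The member median was 0.48 beside a shift of 0.16 in the median of all genes.

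That class joins unlike clusters in the 2 libraries: cluster 9 gives 601 of the 659 Control cells, and clusters 20, 3 and 1 give 417, 690 and 316 of the ZEA cells. HSP90AA1 had 1983, 1878 and 765 CPM in ZEA clusters 20, 3 and 1. Cluster 1 is the round cluster with over 50 cells in each library. There HSP90AA1, at a level too far below its highest class to enter, had 765 CPM in ZEA and 895 in Control (-0.23, -0.59 to 0.15), the other direction. DNAJC7 had 50.2 CPM in ZEA and 37.3 in Control there (0.43, -1.24 to 2.78), from 34 and 3 UMIs. Of 19 members that entered in cluster 1, 4 were higher in ZEA (8.79% of all genes), DNAJB13, DNAJC10, DNAJC2 and DNAJC5B, and 0 lower (4.27%). DNAJC10 had 717 CPM in ZEA and 273 in Control (1.39, 0.78 to 2.08), from 486 and 22 UMIs.

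In elongating spermatid-like cells (1022 in ZEA, 2509 in Control), HSPB9 was the 1 of 23 entering members at least 2-fold lower in ZEA (4.53% of all 3952 genes), with 2212 CPM in ZEA and 5339 in Control (-1.27, -1.31 to -1.23). HSPA13 was the 1 member higher (8.91%), with 377 CPM in ZEA and 170 in Control (1.15, 1.04 to 1.26). HSPA4L had 2547 CPM in ZEA and 1679 in Control (0.60, 0.56 to 0.64). The member median was 0.43, beside a shift of 0.12 over all genes. The Control class holds the late cluster 8, with its 18718 CPM of HSPB9, and ZEA has 11 cells of it. Without cluster 8 the HSPB9 ratio was -0.93 and 0 members were lower. The part of released RNA in the HSPB9 ratio was not tested.

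Within cluster 14, the elongating cluster shared by both libraries (953 ZEA and 231 Control cells), HSPB9 had 2001 CPM in ZEA and 3389 in Control (-0.76, -0.86 to -0.66). HSPA13 was level there, at 399 CPM in ZEA and 396 in Control (0.01, -0.27 to 0.30), and HSPA4L had 2558 in ZEA and 3109 in Control (-0.28, -0.38 to -0.18). Of 23 members that entered, 1 was higher in ZEA (5.78% of all genes), HSPA9 at 1.09 (-0.00 to 2.44) from 106 and 7 UMIs. The 2 lower (12.5%) were DNAJA3 at -1.89 (-2.61 to -1.13) and DNAJB12 at -1.30 (-1.84 to -0.72). The member median was 0.04, beside -0.10 over all genes.

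Shallow unnamed germ clusters gave further values from the same libraries. In cluster 0 (113 ZEA and 1464 Control cells), 1 of 28 members was higher in ZEA (9.88% of all genes), HSPA1L, and 4 were lower (10.9%), DNAJB12, DNAJB9, DNAJA3 and HSP90AA1. In cluster 2 (1272 ZEA and 270 Control cells), 1 of 22 was higher (10.4%), DNAJC2 at 1.08 (0.55 to 1.64), and 1 was lower (11.9%), DNAJA3 at -1.08 (-1.96 to -0.14). HSPB9 was below Control in each shared cluster, with log2 ratios of -0.77 in cluster 0, -0.42 in cluster 1, -0.69 in cluster 2 and -0.76 in cluster 14. Its levels in those clusters ran from 2001 to 2805 CPM in ZEA and from 3120 to 4561 CPM in Control. The 4 ratios come from the same 2 libraries and are not independent. HSPB9 was also higher in Control Sertoli-like cells than in ZEA somatic cells, as given above. The part of released RNA in the 4 ratios was not tested.

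**Figure D5:**
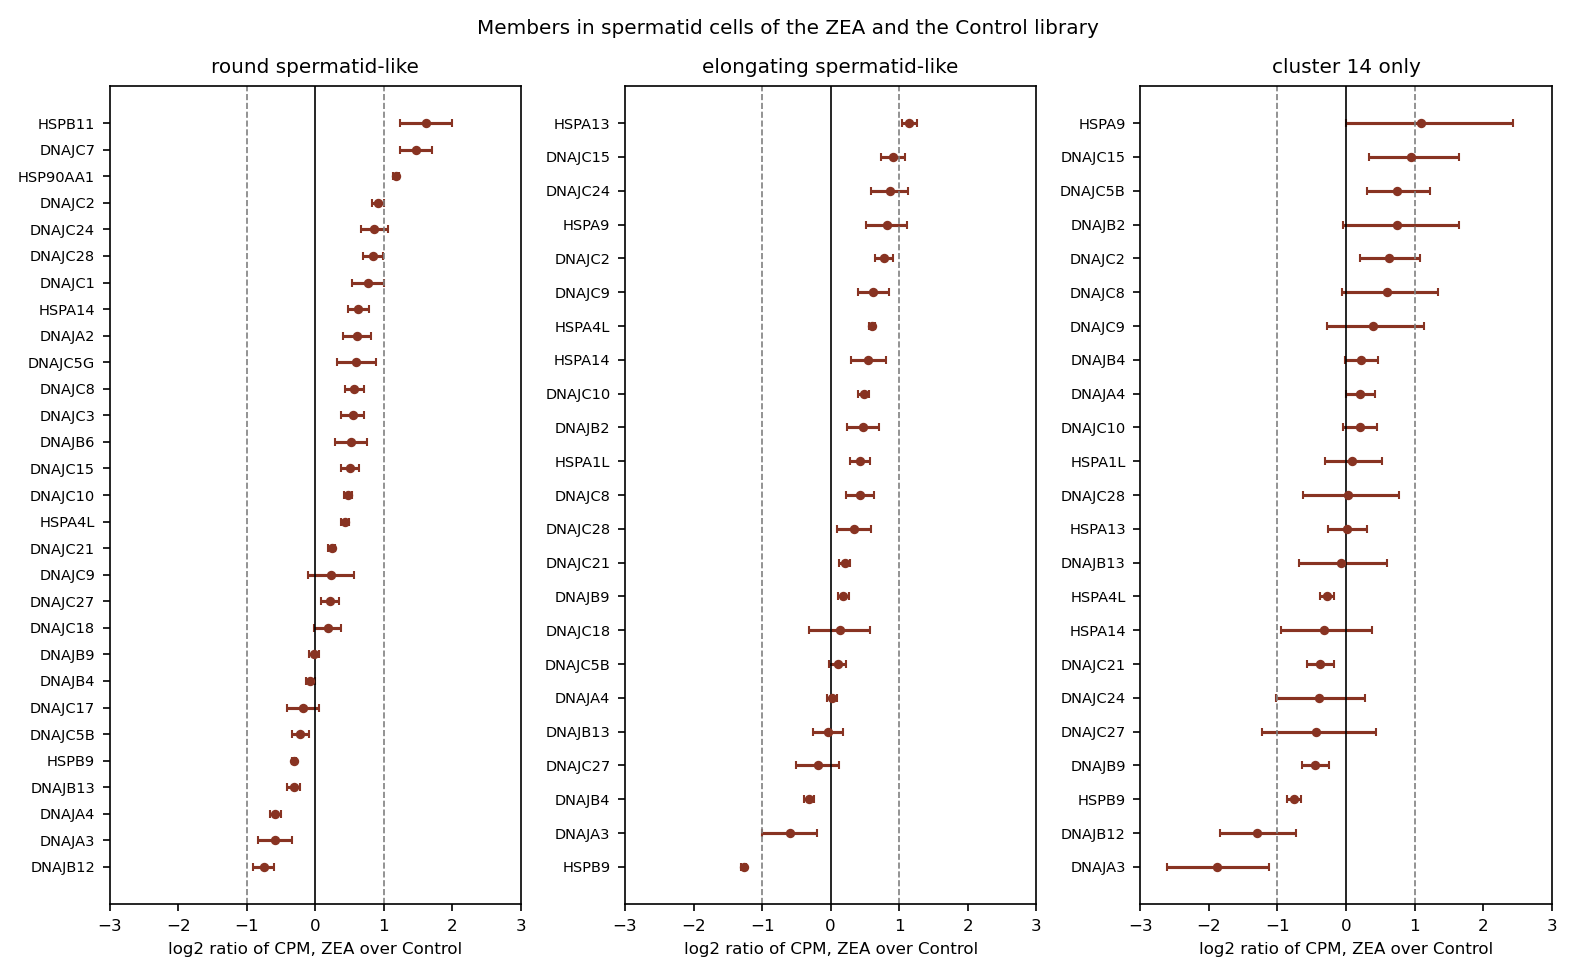
Log2 ratio of CPM, ZEA over Control, of the members that entered in round spermatid-like cells, elongating spermatid-like cells and cluster 14, with exact conditional binomial 95% intervals and dashed lines at 2-fold. HSPB9 lies at -1.27 in the elongating class and at -0.76 in cluster 14, and HSPA13 at 1.15 and 0.01.

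Some members seemed far higher in ZEA spermatids but did not enter, because their level there was small beside that in somatic cells. HSPB1 had 44.3 CPM in ZEA and 0.843 in Control round spermatid-like cells, and HSPA8 had 25.1 in ZEA and 1.20 in Control. Those ZEA levels are 1.27% and 0.890% of the highest somatic class of that library.

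Partner genes outside the member set came from lists of heat shock factors with their binding proteins, cochaperones, the chaperonin CCT and prefoldin. The germ cells of ZEA are again nearly all spermatid-like. In germ over somatic cells of ZEA, 3 of the 4 measured genes of the heat shock factor list entered. All 3 were higher in germ cells (36.0% of all genes): the factors HSF2 at 1.62 and HSF5 at 2.01, and HSF2BP, an HSF2-binding protein and not a factor, at 2.41. Of 23 HSP70 and HSP90 cochaperones, 8 were higher and 8 lower, beside 36.0% and 39.4% of all genes. BAG4 at 1.99, BAG5 at 1.88 and SIL1 at 1.82 were highest in favour of germ cells. BAG3, a stress-induced exchange factor, had 4.68 CPM in germ and 351 in somatic cells (-6.23, -6.73 to -5.77), and PTGES3, the HSP90 partner p23, was lower at -3.47. HSPBP1 belongs to both the cochaperone list and the members.

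Of 8 CCT genes, 3 were higher in germ cells and 1 was lower, beside the same 36.0% and 39.4% of all genes. CCT6B, a testis form of subunit zeta, had 409 CPM in germ and 57.0 in somatic cells (2.84, 2.72 to 2.97), CCT8L2 was higher at 2.86 and CCT5 at 1.70, and CCT8 was lower at -2.08. Of 3 prefoldin genes 0 were 2-fold apart. All 14 immediate early genes were lower in germ cells (39.4% of all genes), with a median of -5.01. Between libraries, TTC4 was higher in ZEA round spermatid-like cells (1 of 17 cochaperones, against 9.33% of all genes, log2 ratio 1.36). BAG6 was higher in ZEA elongating spermatid-like cells (1 of 10, against 8.91% of all genes, 1.14). No other gene of the 5 lists that entered was 2-fold apart in those classes. Within cluster 14, 2 of 6 CCT genes were lower in ZEA (12.5% of all genes), TCP1 at -1.06 and CCT3 at -1.31. There 1 of 11 cochaperones was lower, FKBP4 at -1.36, and 0 were higher (5.78% of all genes). Within cluster 2, 3 of 6 CCT genes were lower in ZEA (11.9% of all genes), TCP1 at -1.18, CCT3 at -1.09 and CCT5 at -1.20. There 2 of 12 cochaperones were lower, AHSA1 at -1.17 and FKBP4 at -1.77, and 0 were higher (10.4% of all genes). The prefoldin gene PFDN1 was higher at 1.11 (1 of 2). Within cluster 0, TCP1 at -1.28 and CCT5 at -1.30 were lower and CCT6B at 1.05 was higher, of 7 CCT genes (10.9% and 9.88% of all genes). Of 16 cochaperones in cluster 0, SGTA was lower at -1.06 and NUDC higher at 1.00. Within cluster 1, 0 of 7 CCT genes were 2-fold apart. Of 11 cochaperones in cluster 1, AHSA1 was lower at -1.22 (4.27% of all genes) and SIL1 higher at 1.82 (8.79%).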

How the data were processed

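Per the labels' protocols, both libraries were made from testis with the 10x Genomics 3' kit. The deposited values are counts of UMIs per gene and cell, made by the authors with Cell Ranger 3.1.0 and STAR per the submitters' processing notes; the matrix header names version 5.0.0 for Control and 3.1.0 for ZEA. No genome build is given in the sources used here. Cells with at least 500 UMIs, 200 genes and at most 20% mitochondrial UMIs were kept (8804 in ZEA, 6811 in Control). The doublet caller marked 1 barcode in ZEA, where it has not worked, and 198 in Control, which were left out. Both libraries were clustered together with scanpy 1.11.5 (2000 variable genes without the members, 30 components, 15 neighbours, Leiden resolution 1, seed 0; igraph 0.11.9, numpy 2.4.6, scipy 1.17.1, scikit-learn 1.9.0), giving 25 clusters. A cluster was named from fixed marker lists when its best list scored at least 1, led by 0.2 and had 3 enriched markers; these criteria were written after the clusters were seen, and 5 unnamed clusters stayed out of the classes. Counts were summed per class and scaled to CPM.

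With 1 library per group no test was possible, and only size was judged (2-fold). The 2-fold call was run on simulated counts that held counting error alone. Of 4-fold changes set in 200 genes, 100% were called for the round and the elongating spermatid comparison, over 5255 and 4962 genes. Those genes had at least 200 UMIs, so that outcome was nearly fixed in advance. Cell makeup, released RNA and differences between preparations were not simulated, so their part in the calls was not tested. Named were the 4 highest and 4 lowest members past 2-fold between libraries, the 5 highest and 5 lowest of germ over somatic, the 3 with the highest CPM per class, and a fixed set. The germ and endothelial steps and the other members given by stage were chosen after their values were seen. The members, lists and comparisons were chosen with earlier results of these data known. Alternatives covered scaling, thinning, cell weighting, filters, doublets and clustering.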

Additional observations from a re-analysis of the deposited data

How the results depend on the processing

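Counts of members 2-fold apart between the libraries depended on the processing, and the cause was not tested. In round spermatid-like cells the 3 members higher in ZEA became 1 after thinning (DNAJC3, which is none of the 3), 0 with the rule on released RNA met in both libraries, 8 with no filter beyond 1 UMI, 5 without the rule on released RNA, 5 in cells with at least 5000 UMIs, 5 with unnamed clusters in their best-scoring class, and 6 each with doublets kept, with members among the variable genes and at resolution 2. The 0 lower became 1 after thinning and 1 with equal weight per cell. In elongating spermatid-like cells the 1 higher became 5 with equal weight per cell, 8 with no filter beyond 1 UMI, 4 without the rule on released RNA, 8 with doublets kept, 0 in cells with at least 5000 UMIs and 0 with unnamed clusters in their best-scoring class. HSPA13 thus lost its call in the last 2 settings. It also lost it at resolution 2, where the 1 higher was DNAJC15, and within cluster 14, where it was HSPA9. The 1 lower became 4 with no filter beyond 1 UMI, 2 without the rule on released RNA, 0 in cells with at least 5000 UMIs, 2 within cluster 14 (DNAJA3 and DNAJB12, not HSPB9) and 0 without cluster 8. HSP90AA1 lost its call after thinning, with equal weight per cell and with unnamed clusters in their best-scoring class, and turned to -0.23 within cluster 1. Among recomputed ratios of members 2-fold apart that was the 1 reversal, 112 left their counting interval and 178 did not. Ratios under 2-fold were not in that tally, and HSPA4L in elongating spermatid-like cells also turned, to -0.28 within cluster 14. The HSPB9 ratio in elongating spermatid-like cells ran from -2.08 with equal weight per cell to -0.42 in cells with at least 5000 UMIs (54 in ZEA, 1106 in Control), and the HSPA13 ratio was 0.01 within cluster 14. Counts for germ over somatic cells stayed within 17 to 18 higher and 10 to 14 lower under the alternatives run for them. The alternatives within cluster 1 or 14, without cluster 8, without endothelial-like cluster 10 and with the rule on released RNA met in both libraries were chosen after seeing the data. ZEA cells are shallower, which limits low members there. No paired analysis was possible because each group has 1 library and no test was run.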

Other observations

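A pair of ZEA clusters had no name and entered no comparison. Cluster 24 (168 cells), with INSL3, a hormone of Leydig cells, among its leading genes, had 4971 CPM of HSP90AA1, 3529 of HSP90AB1, 1832 of HSPA8, 331 of HSPB1, 157 of HSPH1 and 76.7 of HSPA6. The immediate early genes summed to 10430 CPM in cluster 24. Cluster 22 (182 cells), with the antibody genes IGHM and JCHAIN and their helper MZB1 among its leading genes, had 786 CPM of HSP90AA1, 413 of HSP90AB1, 351 of HSPA8, 413 of HSPB9 and 214 of DNAJC3. The members together took 1.38% of UMIs in cluster 24 and 0.35% in cluster 22.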
